A study of Mus musculus with 13 samples.

Results

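The erythropoietin and Kit receptor signalling chain was taken as 8 genes, namely the receptors Epor and Kit, the kinases Jak2 and Lyn, the transcription factors Stat5a and Stat5b, and the signal regulators Sh2b3 and Gab2. They were chosen by name. Of the 8 genes, 7 had a probe set annotated to that gene alone, each with 1 probe set, among 19938 genes measured. Lyn (in mouse assembly GRCm38.p6, chr4:3678068-3791612) was not named by the annotation used and was not analysed here.

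The study measured whole femoral bone marrow of male C57BL/6 mice aged 6 weeks on Affymetrix Mouse Gene 1.0 ST arrays. Treated mice lost 500 µL of blood by retro-orbital puncture, and their marrow was taken 4 h (1 array), 9 h (3 arrays), 12 h, 15 h or 48 h (2 arrays each) later. The 3 control arrays are labelled as controls at baseline, of the same strain, sex and age. No transgene or drug was involved. The labels mention neither a sham puncture nor the hour of day, and they do not say whether replicates were separate animals, so the p-values describe a spread among samples that may be technical.

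Erythropoietin is a kidney hormone that binds a receptor pair on erythroid progenitors. The receptor has no enzyme activity of its own and works through the bound kinase Jak2, which phosphorylates Stat5a and Stat5b. Phosphorylated Stat5 proteins enter the nucleus and bind palindromic sites near target genes such as Cish. Kit, the receptor for stem cell factor, is a tyrosine kinase that acts beside Epor in early progenitors. Lyn is a Src-family kinase that associates with both receptors, Gab2 is a docking protein that recruits phosphatidylinositol 3-kinase and the phosphatase SHP2, and Sh2b3 is an adapter that restrains Jak2 and Kit signalling. Much of the chain is switched by phosphorylation, which these arrays do not measure. The comparison asked whether the transcripts of the chain changed at times when those of its targets did.

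All levels are deposited log2 values made with RMA, so that a difference of 1 is a doubling. The sample numbers ran in a larger series of 10 arrays and a smaller series of 3, which held a single control (replicate 3) with 9 h replicates 1 and 2. Over all probe sets, the median log2 level was 6.98 to 7.03 in the larger series and 7.77 to 7.80 in the smaller one, and 62.3% of probe sets held a repeated value among the 3 smaller-series arrays. Levels are therefore set side by side only within a series. Depth does not apply to arrays, whose number limits the precision. The 4 h array stood apart, with a mean log2 level of 16 small intestine markers of 9.17 against 6.45 to 6.50 in the 2 controls of its series. The controls in turn lay above the arrays at 9 to 48 h, at 5.86 to 6.07 in the larger series, and the smaller-series control had 7.20 against 6.67 to 6.70 at 9 h. In the comparison of the middle times (9, 12 and 15 h) with control, 6 of the 16 were lower (Fabp2, Lypd8, Muc2, Reg3b, Reg3g and Sis), beside 0.787% of all genes. A mean log2 level of 11 liver markers of 7.12 and 7.77 was found at 48 h against 5.86 to 5.94 in the same controls. The 9 h replicate 1 had 6.82 against 6.50 in its control. Skeletal muscle markers (11 genes) varied across most groups. They averaged 10.06 at 4 h, 8.14 to 8.23 in the controls and 7.19 to 9.18 in the other arrays of the larger series, the highest and lowest of these being the 2 arrays at 48 h. In the smaller series they averaged 9.33 in the control and 8.08 and 8.88 at 9 h. The part of these transcripts in the results below was not tested.

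None of the 7 measured genes of the chain passed the test at any time. Of 20 listed targets, 8 were higher at the middle times, where 0.787% of all genes passed. The target list was written with earlier results of these data known, and a difference in response between chain and targets was not tested. Averaged over 9, 12 and 15 h, Kit had the lowest estimate of the 7, at 0.844 of the control level, and it did not pass the test. In the same comparison Cish, a feedback inhibitor made by Stat5 activity, was 4.11-fold higher and Erfe, the hormone by which erythroblasts lower hepcidin, was 3.18-fold higher. The test was limma's moderated test with Benjamini-Hochberg adjustment over all 19938 genes and a threshold of 0.05. Beside the counts of chain genes, the share of all genes that passed is given.

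**Figure D1:**
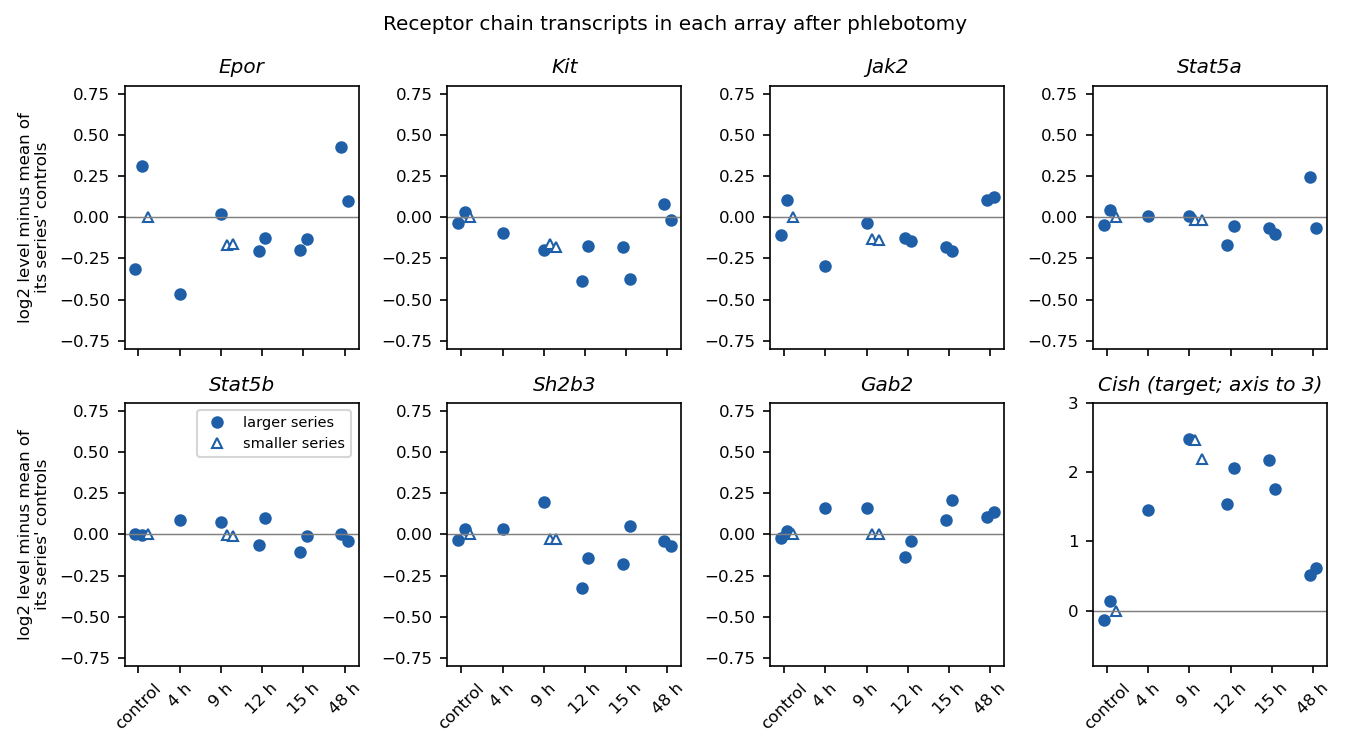
Each point is 1 array, plotted as its log2 level minus the mean of the controls of its own series, against group (control and hours after phlebotomy); filled circles are the larger series and open triangles the smaller one. The 7 genes of the chain share one axis, in which Kit points at 9, 12 and 15 h lie below all control points of their series, while Cish, drawn on an axis to 3, lies above its controls in every phlebotomised array.

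Epor (chr9:21958897-21963576) encodes the erythropoietin receptor. In the larger series its log2 level was 9.35 and 9.98 in the 2 controls, 9.19 at 4 h, 9.68 at 9 h, 9.46 and 9.53 at 12 h, 9.46 and 9.53 at 15 h, and 10.09 and 9.76 at 48 h. In the smaller series it was 10.73 in the control and 10.56 in both 9 h arrays. The 2 larger-series controls lay 0.62 apart, a wider gap than in 97.9% of genes, and the arrays at 9, 12 and 15 h fell between them. Only the 4 h array lay below both controls and only 48 h replicate 1 above both. The fitted log2 fold change against control was −0.50 ± 0.20 (SE, 1 array) at 4 h, −0.07 at 9 h, −0.20 at 12 h, −0.20 at 15 h and 0.23 ± 0.16 at 48 h. The intestine and muscle markers were highest on the 4 h array and the liver markers on the 48 h arrays of the larger series. None of the 5 passed the test, with limma adjusted p of 0.279 at 4 h and of 0.562 to 0.953 at the other times. In order of the estimates, 4 h was lowest and 48 h highest, and the neighbours 12 h, 15 h and 9 h differed by less than their errors. Between 48 h and the mean of 9, 12 and 15 h the difference was 0.39 ± 0.14 (95% interval 0.08 to 0.70), with an adjusted p of 0.223 in limma. Leaving out control replicate 1, the lower of the pair, made the 4 h estimate −0.74 with a limma adjusted p of 0.0127, whereas without control replicate 2 it was −0.30. The same 2 controls moved the other times, since the estimate without replicate 1 and without replicate 2 was −0.44 and 0.005 at 12 h, −0.44 and 0.006 at 15 h, −0.22 and 0.05 at 9 h, and −0.01 and 0.43 at 48 h. Without 48 h replicate 1 the 48 h estimate was 0.07, and its difference from the middle times 0.22. In whole marrow, fewer cells of a type and less RNA per cell cannot be told apart.

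Kit (chr5:75574987-75656722) encodes the stem cell factor receptor. Its log2 level in the larger series was 9.07 and 9.14 in the controls, 9.01 at 4 h, 8.91 at 9 h, 8.72 and 8.93 at 12 h, 8.92 and 8.73 at 15 h, and 9.19 and 9.09 at 48 h. In the smaller series it was 9.90 in the control and 9.74 and 9.72 at 9 h. Every array at 9, 12 and 15 h lay below all controls of its series, and the 48 h arrays were back among or above them. Of the 7 genes, 1 was separated in this way, Kit, beside 4.86% of all genes separated in either direction. The fitted log2 fold change was −0.09 ± 0.11 at 4 h (1 array), −0.18 at 9 h, −0.28 ± 0.09 at 12 h, −0.27 ± 0.09 at 15 h and 0.04 at 48 h. The estimates at 12 and 15 h differed by less than their errors, and a difference between them and 9 h was not tested. At 9 h the difference was −0.20 within the larger series and −0.17 within the smaller one. For the mean of 9, 12 and 15 h it was −0.24 ± 0.07 (95% interval −0.39 to −0.10, a fold of 0.763 to 0.934), with a limma adjusted p of 0.155. From those times to 48 h Kit differed by 0.28 ± 0.08 (interval 0.11 to 0.45), with an adjusted p of 0.122 in limma. Over 21 processing settings the middle-time estimate ranged from −0.28 to −0.21, and none of them gave an adjusted p under the threshold.

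Jak2 (chr19:29251803-29313095), the kinase bound to Epor, had a log2 level of 9.93 and 10.14 in the larger-series controls, 9.73 at 4 h, 9.999 at 9 h, 9.90 and 9.89 at 12 h, 9.85 and 9.83 at 15 h, and 10.14 and 10.15 at 48 h. The smaller series gave 10.77 in the control and 10.63 in both 9 h arrays. The 4, 12 and 15 h arrays lay below both controls of their series, the larger-series 9 h array lay between them, and both 48 h arrays lay just above the higher one. The log2 fold change was −0.32 ± 0.10 at 4 h (interval −0.53 to −0.10, 1 array), with a limma adjusted p of 0.162. It was −0.15 ± 0.06 for the mean of 9, 12 and 15 h (adjusted p 0.343 in limma) and 0.25 ± 0.07 from those times to 48 h (interval 0.10 to 0.40, adjusted p 0.122 in limma). Without control replicate 1 the 4 h estimate was −0.40, with a limma adjusted p of 0.0239, the second of 2 member calls in any setting tried for a single time.

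Stat5a (chr11:100859351-100885169) and Stat5b (chr11:100780731-100859004) are neighbouring genes for the factors that Jak2 activates. Stat5a had log2 levels of 8.84 and 8.93 in the larger-series controls, 8.90 at 4 h and at 9 h, 8.72 and 8.84 at 12 h, 8.83 and 8.79 at 15 h, and 9.13 and 8.82 at 48 h. The smaller series gave 9.86 in the control and 9.84 in both 9 h arrays. In the larger series its groups overlapped except at 12 and 15 h, where all arrays lay below both controls. Stat5b had 9.63 and 9.62 in the larger-series controls, 9.71 at 4 h, 9.70 at 9 h, 9.56 and 9.72 at 12 h, 9.52 and 9.61 at 15 h, and 9.62 and 9.59 at 48 h. Smaller-series levels were 10.36 in the control and 10.36 and 10.35 at 9 h. Its whole range in the larger series was 0.21, the narrowest of the 7 genes. The middle-time log2 fold change was −0.07 for Stat5a (interval in folds 0.856 to 1.06) and −0.01 for Stat5b (0.910 to 1.08). The limma adjusted p was 0.741 for Stat5a and 0.953 for Stat5b.

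Sh2b3 (chr5:121815481-121837645), the restraining adapter, had log2 levels of 9.31 and 9.37 in the larger-series controls, 9.37 at 4 h, 9.54 at 9 h, 9.01 and 9.20 at 12 h, 9.16 and 9.39 at 15 h, and 9.30 and 9.27 at 48 h. In the smaller series it was 10.35 in the control and 10.32 in both 9 h arrays. The 9 h array of the larger series was its highest and 12 h replicate 1 its lowest. The log2 fold change was −0.27 ± 0.10 at 12 h (interval −0.49 to −0.06, limma adjusted p 0.274) and −0.09 for the mean of 9, 12 and 15 h. At 9 h it was 0.20 within the larger series and −0.03 within the smaller one, so the sign was not shared.

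Gab2 (chr7:97081751-97308951), the docking protein, had log2 levels of 9.22 and 9.26 in the larger-series controls, 9.40 at 4 h, 9.40 at 9 h, 9.10 and 9.20 at 12 h, 9.33 and 9.45 at 15 h, and 9.35 and 9.37 at 48 h. In the smaller series all 3 arrays held the same value, 10.03. The 12 h arrays lay below the controls and all other phlebotomised arrays of the larger series above them. The log2 fold change was −0.12 at 12 h, 0.12 at 15 h and 0.03 ± 0.06 over the middle times (interval −0.09 to 0.15), and none passed the test, with limma adjusted p of 0.525 to 0.878 in these 3 comparisons.

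Counted together, 0 of 7 genes of the chain passed at 4 h, beside 1.99% of all genes, and 2 of 7 had an unadjusted p under 0.05 (Epor and Jak2), beside 15.2% of all genes. At 9 h 0 of 7 passed beside 0.0953% of all genes, and 1 of 7, Kit, had an unadjusted p under 0.05 beside 6.12%. At 12 h the count was 0 of 7 beside 0.105%, with 2 (Kit and Sh2b3) at the unadjusted level beside 13.7%. At 15 h it was 0 of 7 beside 0.256%, with 2 (Jak2 and Kit) beside 12.5%. At 48 h it was 0 of 7 beside 0.376%, with 0 at the unadjusted level beside 14.0%. For the mean of 9, 12 and 15 h it was 0 of 7 beside 0.787%, with 2 (Jak2 and Kit) beside 12.0%. From those times to 48 h it was 0 of 7 beside 0.978%, with 3 (Epor, Jak2 and Kit) beside 15.8%. In the test for a difference at any time it was 0 of 7 beside 2.24%, with 2 (Jak2 and Kit) beside 19.4%. With so few genes passing in all, a count of 0 of 7 lies near the background in each comparison. The widest 95% interval for the middle times, that of Epor, ran from 0.747 to 1.08-fold, and no interval of the 7 reached beyond 1.11-fold on the higher side. Of the 7, 3 (Stat5a, Sh2b3 and Gab2) held repeated values in the smaller series, which entered the fit as replicates without spread. The effect of these ties on the intervals was not tested. For Gab2 the middle-time log2 fold change was 0.03 in the fit and 0.07 with the larger series alone.

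The median log2 fold change of the 7 genes was −0.004 at 4 h and −0.006 at 9 h, beside medians of −0.003 and 0.01 over all genes. It was −0.15 at 12 h and −0.10 at 15 h, beside −0.008 and −0.007, and 6 of the 7 estimates were below 0 at each of these times. At 48 h it was 0.08 beside 0.01. For the middle times together it was −0.09 beside −0.002. From the middle times to 48 h it was 0.15 beside 0.01. The times share their controls, so these medians are not independent of one another.

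**Figure D2:**
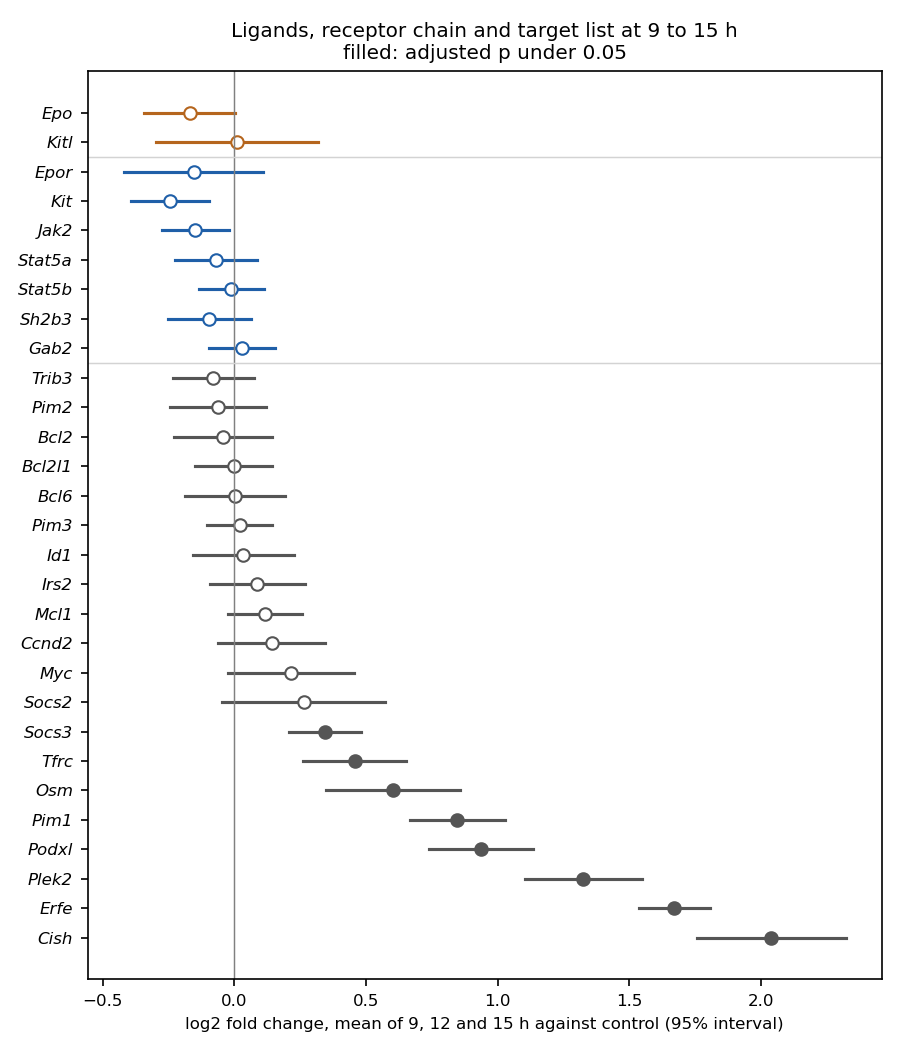
Points are log2 fold changes of the mean of 9, 12 and 15 h against control (x axis) with 95% intervals from the limma fit, 1 gene a row, for the ligands Epo and Kitl (top), the 7 measured chain genes (middle) and the 20 listed targets (bottom); filled points passed the test. No ligand or chain gene is filled, all chain intervals lie between -0.42 and 0.15, and 8 targets from Socs3 at 0.34 to Cish at 2.04 are filled.

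Neither ligand of the chain passed the test in marrow. Epo, the hormone gene, which is chiefly transcribed in kidney, had a log2 level of 4.76 to 5.18 in the larger series. Its middle-time log2 fold change was −0.17 ± 0.08 with a limma adjusted p of 0.426. The 3 smaller-series arrays held 1 value for it, and likewise for Kitl. Kitl, which encodes stem cell factor made by stromal cells, had log2 levels of 9.06 and 8.46 in the larger-series controls. Its middle-time log2 fold change was 0.01 ± 0.14 (interval in folds 0.813 to 1.25).

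The wider pathway was read from lists of related genes. In each of the 8 comparisons 0 of 13 measured related receptors (Il3ra and Flt3 among them), 0 of 6 other JAK kinases and STAT factors, 0 of 9 relatives of Lyn, Sh2b3 and Gab2, 0 of 22 downstream adapters and effectors, and 0 of 12 phosphatases and ubiquitin ligases passed the test. For the middle times their counts at an unadjusted p under 0.05 were 0, 0, 0, 1 and 2, beside 12.0% of all genes. The share of all genes passing in each comparison is given above. The median log2 fold changes of these lists at those times ran from −0.04 to 0.04. Of the 8 SOCS feedback inhibitors, 2 were higher at the middle times, Cish and Socs3, and the same 2 were lower at 48 h than at the middle times.

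Part of the target list passed while no gene of the chain did. Of 20 listed targets of erythropoietin and Stat5, all measured, 4 were higher at 4 h (Cish, Erfe, Id1 and Socs3), 4 at 9 h and 4 at 12 h (Cish, Erfe, Pim1 and Plek2 at both times), 5 at 15 h (those 4 and Podxl) and 3 at 48 h (Erfe, Plek2 and Podxl). The call of Pim1 at 12 h held in 9 of 21 settings and that of Erfe at 48 h in 9 of 20. With the larger series alone both were lost (limma adjusted p 0.133 and 0.117), as were the 9 h calls of Pim1 (0.106) and Plek2 (0.0749) and the 15 h call of Pim1 (0.0612). At the middle times together 8 were higher, which were these 5 with Osm, Socs3 and Tfrc, and 0 were lower. The same 8 lay above all controls of their series on every array at those times, beside 662 of all 19938 genes. These are the arrays that gave the calls, so this separation is not added evidence. The background shares of genes passing the test are those given above, 0.787% for the middle times. The list's median log2 fold change at the middle times was 0.18. The list was written with earlier results of these data known, so its count is not independent evidence. A difference in response between the chain and its targets was not tested as such.

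Cish had log2 levels of 7.56 and 7.83 in the larger-series controls, 9.15 at 4 h, 10.18 at 9 h, 9.23 and 9.75 at 12 h, 9.88 and 9.46 at 15 h, and 8.21 and 8.31 at 48 h. Smaller-series levels were 8.11 in the control and 10.57 and 10.30 at 9 h. No phlebotomised array overlapped the controls of its series. The log2 fold change of Cish was 2.40 ± 0.16 at 9 h (limma adjusted p 9.98e-05) and 1.43 ± 0.22 at 4 h (0.00409, 1 array), and at 48 h it was 0.54 ± 0.17, which did not pass (0.207). Within a series the 9 h difference was 2.48 in the larger and 2.33 in the smaller one.

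Erfe had log2 levels of 7.31 and 7.26 in the larger-series controls, 8.14 at 4 h, 9.25 at 9 h, 8.67 and 8.84 at 12 h, 9.07 and 9.01 at 15 h, and 7.81 at 48 h in both arrays. Its 9 h difference was 1.96 in the larger and 1.76 in the smaller series, and its middle-time log2 fold change was 1.67 ± 0.06 (limma adjusted p 4.70e-07). Pim1, a survival kinase induced by Stat5, was 0.85 ± 0.08 higher at the middle times (adjusted p 0.00124 in limma). Socs3, a SOCS-box inhibitor of JAK signalling, was 0.59 higher in the 1 array at 4 h. At the middle times Socs3 was 0.34 ± 0.06 higher (adjusted p 0.0314 in limma). This middle-time call held in 10 of 21 settings and was lost with the larger series alone. Id1, an inhibitor of helix-loop-helix factors, was 0.75 ± 0.15 higher in the 1 array at 4 h (limma adjusted p 0.0265). That call held in 10 of 19 settings and was lost with the larger series alone (adjusted p 0.112 in limma), and the 3 smaller-series arrays held 1 value for Id1. Bcl2l1, which encodes the survival protein Bcl-xL and is a known Stat5 target in erythroblasts, had a middle-time log2 fold change of 0.00 (0.903 to 1.10-fold), Socs1 had −0.05 and Socs2 0.26, and none of these 3 passed.

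**Figure D3:**
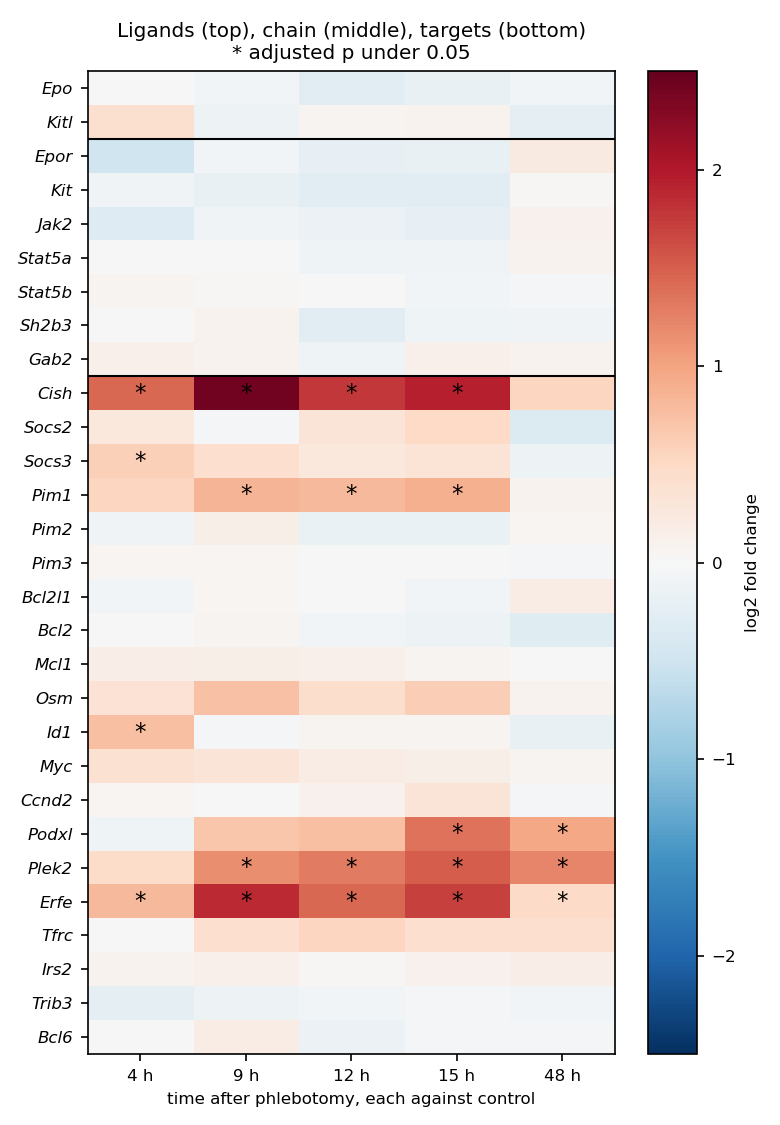
Colour gives the log2 fold change against control of each gene (rows: 2 ligands, 7 chain genes, 20 targets) at each time after phlebotomy (columns), and asterisks mark an adjusted p under 0.05 in the limma fit; the 4 h column rests on 1 array. The chain rows hold no asterisk and stay between -0.50 and 0.23, while Cish reaches 2.40 and Erfe 1.86 at 9 h.

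The start regions of the chain genes and of the targets were searched for the Stat5 site TTCNNNGAA, a palindrome that reads the same on both strands. The windows were RefSeq's (GRCm38.p6), 250 bases before to 50 after a start. Of all 32851 windows, 8.30% held this motif. Of the chain genes, 6 had windows (9 in all), and 0 of the 6 held the motif. Of the targets, 14 had windows (19 in all), and 3 genes held it, Cish, Socs3 and Bcl6. The erythroid GATA motif AGATAA, searched on both strands, was in 11.2% of all windows and in 1 chain gene, Epor. The background shares are of windows and the counts are of genes, which are unlike measures, since a gene with several windows has more chances to match. A share over all genes was not computed. These matches are descriptions of letters, and binding was not measured. The start regions of the 2 called inhibitors and of Epor are shown because they hold these matches, with the matches in capitals (Stat5 motif in Cish and Socs3, GATA motif in Epor, where it reads as its reverse complement on the strand of the gene). The Cish stretch (chr9:107296409-107296678, plus strand) runs 20 bases past the start, since its 2 matches begin at bases 1 and 12 after it. The Socs3 stretch (chr11:117969367-117969616, minus strand) and the Epor stretch (chr9:21963577-21963826, minus strand) end at the last base before the start. The 3 sequences read 5′ to 3′ on the strand of the gene.
Cish: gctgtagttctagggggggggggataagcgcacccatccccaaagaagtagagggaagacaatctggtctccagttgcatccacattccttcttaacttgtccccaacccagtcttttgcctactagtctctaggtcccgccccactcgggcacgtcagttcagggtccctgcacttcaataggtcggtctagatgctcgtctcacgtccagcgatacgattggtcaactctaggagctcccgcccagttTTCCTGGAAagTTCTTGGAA
Socs3: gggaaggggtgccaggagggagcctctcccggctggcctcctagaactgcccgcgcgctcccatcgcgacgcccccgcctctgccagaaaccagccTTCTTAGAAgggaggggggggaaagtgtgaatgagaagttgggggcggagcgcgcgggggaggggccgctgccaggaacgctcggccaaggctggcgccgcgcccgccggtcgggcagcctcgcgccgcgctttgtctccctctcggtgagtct
Epor: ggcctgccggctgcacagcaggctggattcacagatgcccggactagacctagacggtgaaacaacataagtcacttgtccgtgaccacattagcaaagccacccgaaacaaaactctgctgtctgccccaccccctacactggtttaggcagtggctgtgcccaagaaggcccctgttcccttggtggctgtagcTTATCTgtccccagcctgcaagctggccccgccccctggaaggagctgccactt

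Likeness was measured over the 10 larger-series arrays, among 9702 genes at or above the median level, as a description of arrays that share groups. The genes most like Epor were Tk1 (Pearson r 0.984, Spearman rho 0.915), Slc25a37 (0.975 and 1.00) and Sptb (0.973 and 0.939). Tk1 encodes thymidine kinase, Slc25a37 the mitochondrial iron importer mitoferrin 1, and Sptb the red cell spectrin beta chain. All 3 followed Epor in having one control well above the other. The genes most like Kit were Plb1 (r 0.919, rho 0.806), Lrrc56 (0.910 and 0.927) and Rnf10 (0.900 and 0.964). Like Kit, all 3 lay below their mean over the arrays in 12 h replicate 1 and 15 h replicate 2. Within the chain, Epor followed Jak2 with r 0.895 and Kit with r 0.506, Kit followed Stat5a with r 0.752, and Epor and Stat5b had r −0.133.

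**Figure D4:**
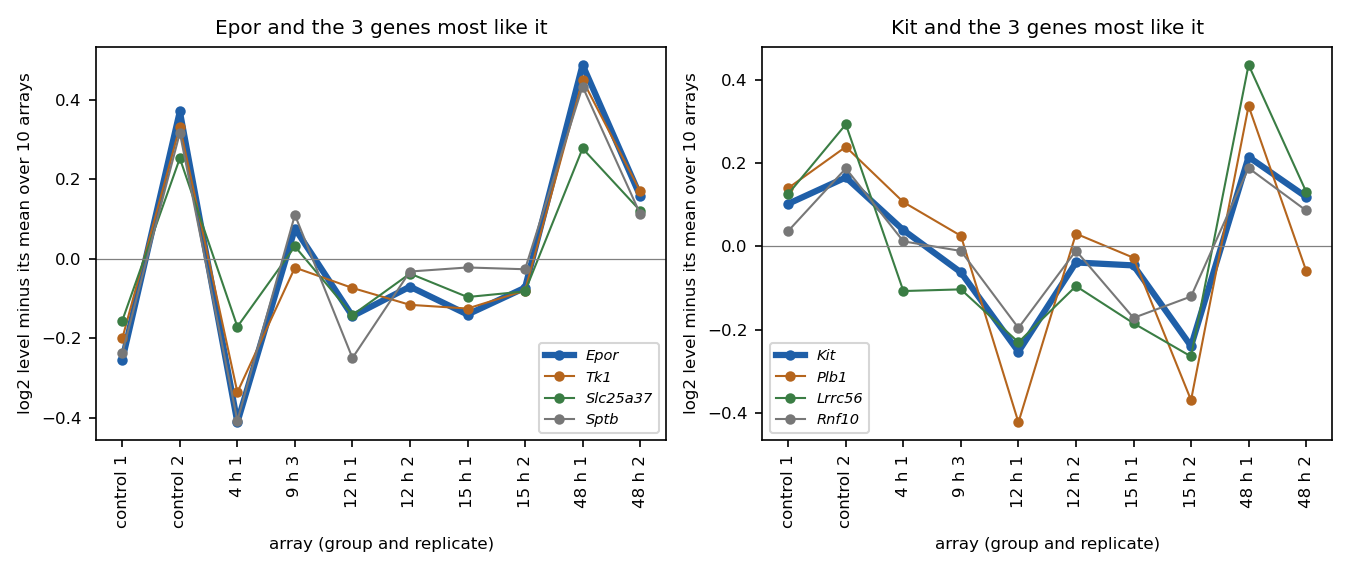
Lines join the log2 level minus its mean over 10 larger-series arrays (y axis) for Epor with Tk1, Slc25a37 and Sptb (left) and for Kit with Plb1, Lrrc56 and Rnf10 (right), 1 point per array along the x axis. Epor runs low in control 1 and the 4 h array and high in control 2 and 48 h replicate 1, while Kit runs lowest in 12 h replicate 1 and 15 h replicate 2.

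Markers of the cells that carry these receptors gave the following values. The mean log2 level of 17 progenitor and early erythroid markers was 10.12 and 10.30 in the larger-series controls, 10.05 at 4 h, 10.24 at 9 h, 10.11 to 10.21 at 12 h, 10.17 to 10.19 at 15 h, and 10.34 to 10.41 at 48 h. The controls differed in the same order as for Epor, and the 4 h array was again lowest. Both 48 h arrays were highest for these markers, whereas for Epor 48 h replicate 2 (9.76) lay below control replicate 2 (9.98). In the smaller series the marker mean was 10.97 in the control and 10.89 and 10.90 at 9 h. Of these markers 0 of 17 passed against control at any single time, and 1 was higher at 48 h than at the middle times, Aqp1, the water channel of red cells. Mast cells also carry Kit, and the mean of 10 mast cell markers lay at 6.97 to 7.01 in the controls and 6.74 to 7.13 in the other larger-series arrays, with 0 of 10 called. Neutrophil markers (14 genes) lay at 12.38 to 12.61 and macrophage markers (11 genes) at 9.68 to 10.05 in the larger series, with 0 called against control. At 48 h all 14 neutrophil and all 11 macrophage estimates were below 0, as were 12 of 13 B-lineage ones. Of these, 5, 3 and 6 had an unadjusted p under 0.05 in limma, beside 14.0% of all genes. Of the progenitor and early erythroid estimates 12 of 17 were above 0 at 48 h. Among these 17, counting either sign, 7 had an unadjusted p under 0.05 in limma, beside the same 14.0%. Of 13 B-lineage markers 1 was lower at 4 h, Ebf1. Of 6 megakaryocyte markers 1 was lower at the middle times, Gp9, and of 11 stromal and bone markers 1 was higher, Mmp13. The shares of all genes passing in each comparison are given above, 0.787% for the middle times. The part of these cell types in the levels of Epor and Kit was not tested.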

How the data were processed

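RNA of whole femoral marrow was extracted with Trizol and RNeasy columns, amplified and hybridised to 1-colour Mouse Gene 1.0 ST arrays, per the labels' protocols. The deposited table holds log2 levels per probe set, which the authors computed by RMA according to the submitters' processing notes (version not given in the sources used here). Scanner files were not used. Of 35557 probe sets, 21789 had exactly 1 gene symbol in the platform annotation, 1621 had several and 12147 were not listed with a gene. For 21698 of those with 1 symbol, the symbol was taken through the Entrez identifier, whether or not it changed. The probe set with the highest mean stood for each of 998 genes with several, which left 19938 genes.

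The 13 arrays entered a single limma model (version 3.58.1, under R 4.3.3) that held 6 groups and, as a fixed term, the series of sample numbers (6 residual and 4.62 prior degrees of freedom), so that levels were compared within a series. The lone 4 h sample was taken to vary as other groups do. There were 8 comparisons, which were each of 5 times against control, the middle times (9, 12 and 15 h averaged) against control, 48 h against the middle times, and a moderated F test for any time. The threshold was a Benjamini-Hochberg adjusted p of 0.05 over all genes. Intervals are 95% intervals of the fit. The script was tested on simulated data.

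Members and lists were chosen with earlier results of these data known. The text names the members, Epo, Kitl, Cish, Socs1, Socs2, Socs3, Pim1, Bcl2l1, Id1 and Erfe whatever their values, listed pathway genes past the threshold, and the 3 genes most like Epor and Kit. Marker genes named one by one were chosen after their values were seen. The labels give no replicate numbers, so replicate numbers follow sample order and pair nothing. Alternatives were the larger series alone, only the groups compared, the series as a random block, trended and robust moderation, no dim genes, renewed quantile normalization, every probe set and each replicate left out. Plots used matplotlib 3.10.9 (Python 3.11.15).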

Additional observations from a re-analysis of the deposited data

Results flagged for a closer look

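Of the genes named, 4 targets differed between times after phlebotomy, by the fit's own contrast of 48 h against the mean of 9, 12 and 15 h (the log2 value, with limma adjusted p). Erfe differed by −1.18 (2.87e-05) and Cish by −1.50 (0.00114). Pim1 differed by −0.76 (0.00496) and Socs3 by −0.47 (0.0170), and Socs3 lost its call with the larger series alone and without 9 h replicate 3 or 48 h replicate 1. No gene of the receptor chain passed in this comparison, in which Epor, Kit and Jak2 had estimates of 0.39, 0.28 and 0.25 with limma adjusted p of 0.223, 0.122 and 0.122. No group had the 4 or more arrays that a search for single outlying arrays needs.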

How the results depend on the processing

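Over 21 settings other than the reported one, 161 of 163 counts of called chain genes were 0, and no called value changed sign. The exceptions were without control replicate 1, where Epor and Jak2 were called at 4 h, so that the count of chain genes ranged from 0 to 2 when 1 replicate was left out, at 4 h and for any time. Cish, Erfe, Pim1, Plek2 and Podxl were called at the middle times in all 21 settings, whereas Socs3 was called in 10, Osm in 8 and Tfrc in 7 of them. No paired analysis was possible because the labels carry no replicate numbers.

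Counts over all genes moved more. The reported counts were 19 at 9 h, 21 at 12 h, 51 at 15 h and 75 at 48 h. They were 157 at the middle times and 195 from those to 48 h. Reported shares at 4 h and for any time are given above. By setting, only the larger moves in proportion are listed, and none came from renewed quantile normalization or every probe set. The setting without dim genes tested only genes at or above the median level. With only the groups compared, 199 genes passed at 4 h, 3 at 9 h, 2 at 12 h, 9 at 15 h, 13 at 48 h and 462 from the middle times to 48 h. Without dim genes the counts were 43 at 4 h, 58 at 12 h, 17 at 48 h, 258 at the middle times and 105 for any time. With the series as a random block they were 32 at 9 h, 112 at 12 h, 81 at 15 h, 143 at 48 h, 252 at the middle times, 335 from those to 48 h and 759 for any time. With the larger series alone they were 10 at 12 h, 22 at 15 h, 31 at 48 h, 60 at the middle times and 57 from those to 48 h. With trended and robust moderation they were 65 at 12 h, 134 at 48 h and 243 at the middle times. An alternative chosen after seeing the data left out the 4 h array, both 48 h arrays and 9 h replicate 1, for their intestine and liver transcripts. Its counts were 8 at 9 h, 7 at 12 h, 23 at 15 h, 59 at the middle times and 12 for any time. Its any-time test covered 9, 12 and 15 h alone, whereas the reported one covered 5 times, so these 2 counts are of unlike tests. In that alternative Kit at the middle times was −0.25 (limma adjusted p 0.327). With 1 replicate left out the counts ran from 293 to 1359 at 4 h, 5 to 75 at 9 h, 6 to 414 at 12 h, 6 to 505 at 15 h, 31 to 104 at 48 h, 31 to 340 at the middle times, 32 to 502 from those to 48 h and 83 to 1560 for any time. When the 4 h array was the one left out, the any-time test likewise covered only the remaining times. The cause of these moves was not tested.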
